A study of Mus musculus with 12 samples.

Results

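The proteasome is the large protease that unfolds and cuts proteins tagged with ubiquitin, and its subunit genes were followed here in mouse cells sorted as pancreatic beta cells from late gestation to adulthood. The genes were taken by symbol, as every gene whose name begins with Psma, Psmb, Psmc, Psmd or Psme and a digit, with Psmb8 and Psmb9 left out. Of 40 such genes with a named probe on the array, 38 were above background on at least 2 samples and were kept, among 9187 genes tested in all. Psma1 and Psma6, both of the alpha ring, were above background on 0 samples and have no value here. Of the 38, 36 lay above background on every sample. The exceptions were Psmd1, below it in 1 adult, and Psmd2, above it on 7 samples and on 0 of 3 adults. By product, 36 of the 38 are subunits, assembly chaperones or activators of the proteasome. The other 2 fit the rule by name and are none of these: Psmc3ip is a recombination factor of meiosis, and Psme3ip1 binds the activator Psme3.

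The samples came from 4 ages: embryonic day E18.5 (4 samples), postnatal day 1 (P1, 3 samples), postnatal day 10 (P10, 2 samples) and adults of 5 weeks (3 samples). All animals were heterozygous for the Pdx1-GFP transgene and came from a cross with ICR mice. Islets, the endocrine clusters of the pancreas, were dissociated and the green fluorescent cells were sorted. Each sample was hybridised to 1 Illumina array. The promoter behind the fluorescence belongs to Pdx1, which is active in most pancreatic progenitors and, at lower levels, in some cells other than beta cells. Whether a sample pooled animals is not given in the sources used here, so p-values measure the spread between these samples, which may be technical.

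The 20S core is a barrel of stacked rings. Alpha subunits (Psma) form the outer rings and gate the entrance, and beta subunits (Psmb) form the inner rings, where Psmb5, Psmb6 and Psmb7 carry the cutting sites. The 19S regulatory particle caps the barrel: its ATPases (Psmc) unfold the substrate, and its other subunits (Psmd) bind ubiquitin chains and remove them. Activators (Psme) can dock on the core in place of the 19S particle. In beta cells, which make large amounts of insulin precursor, the proteasome also clears misfolded proteins exported from the endoplasmic reticulum.

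The share of probes above background was 40.1% to 48.3% by sample. All 11 measured markers of beta cells were above background on every sample at all 4 ages. Their mean log2 level ran from 9.50 to 9.74 at E18.5 and 9.46 to 9.675 at P1. It ran from 10.09 to 10.15 at P10 and 10.21 to 10.37 in adults. Markers of other cells also differed with age. The mean log2 level of 15 genes of the enzyme-secreting acinar cells ran from 5.27 to 6.96 at E18.5, 5.71 to 7.82 at P1, 9.81 to 11.10 at P10 and 10.19 to 11.38 in adults. Of 16 acinar markers with a probe, 14 were above background on every adult sample against 7 on every E18.5 sample, and Ptf1a and Rbpjl on 0 samples at E18.5. The mean of 12 genes of dividing cells ran from 7.01 to 7.30 at E18.5, 5.92 to 6.55 at P1, 6.70 to 7.12 at P10 and 5.40 to 5.82 in adults. The mean of 7 markers of the other islet cells was 9.83, 9.88 and 8.02 in the adult samples, against 9.77 to 10.87 at E18.5. Markers of 3 further kinds of cell were lower in adults without overlap: the mean of 6 endothelial and stromal genes was 4.64 to 4.86 in adults against 5.03 to 7.15 at E18.5, that of 3 immune genes 4.45 to 4.88 against 5.00 to 6.04, and that of 5 duct genes 6.64 to 6.83 against 6.91 to 7.22. Of the duct genes, Tspan8 went the other way, with a mean of 6.15 at E18.5 and 6.86 in adults. Several of these genes were above background on 0 adult samples: Pecam1, Col1a1, Col3a1, Cd52, Laptm5 and Sox9. Background thus limits the size of these differences. The immune-cell genes Ptprc and Tyrobp were above background on 0 samples at all 4 ages.

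Levels are given as log2 of the background-corrected and quantile-normalised intensity. They compare samples for a given probe and do not rank the genes. Differences were tested with limma across all 9187 genes, and a gene was called where the Benjamini-Hochberg adjusted p was under 0.05. Over the 4 ages, 18 of the 38 genes passed the moderated F-test, against 44% of all genes. The plot of all 38 genes by sample shows where the differences lay.

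**Figure D1:**
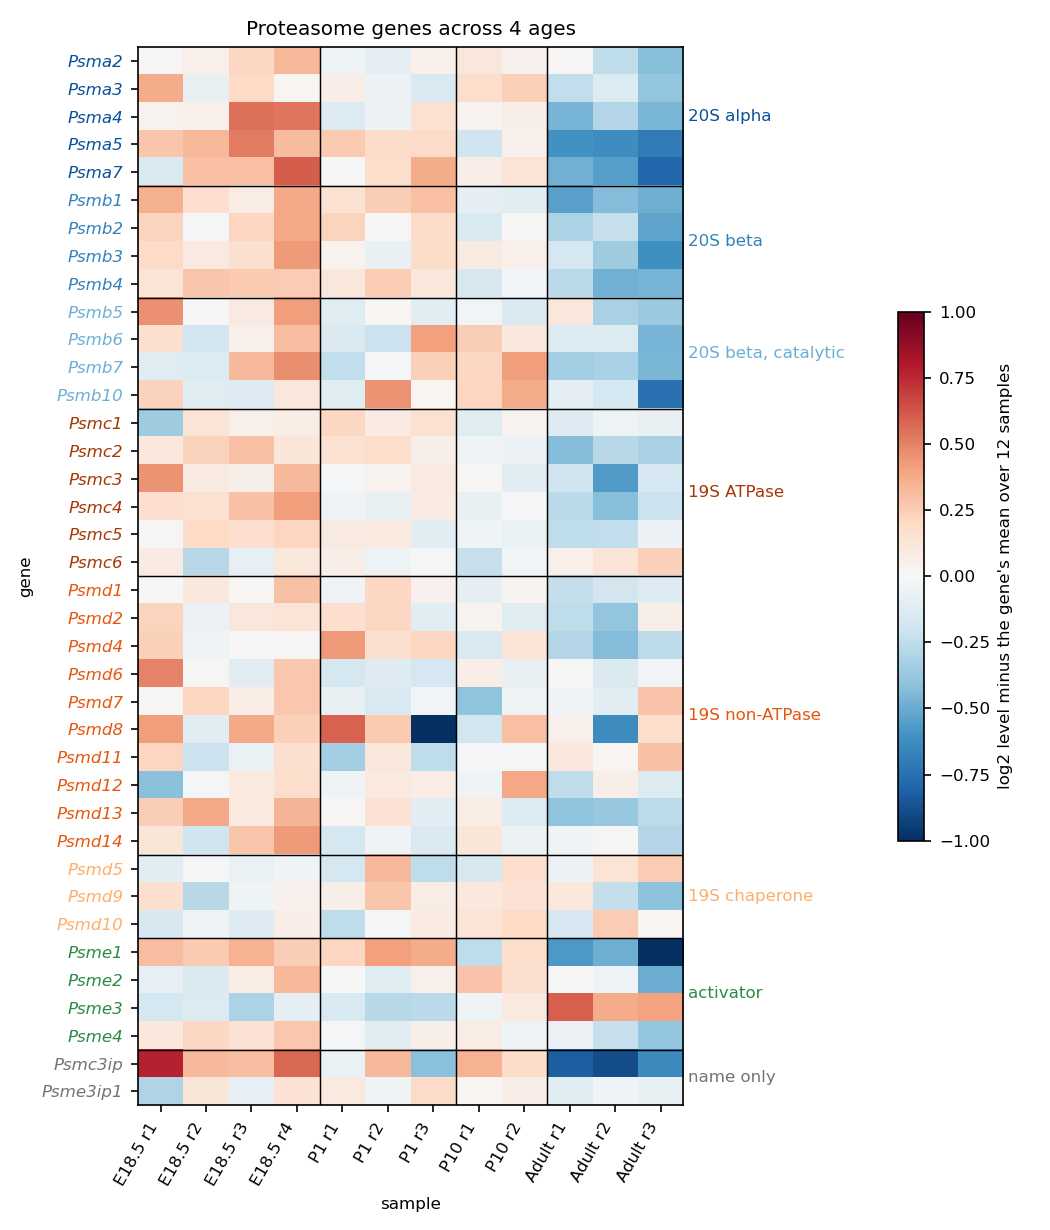
Each row is a gene and each column 1 of the 12 samples, and the colour is the log2 level minus the gene's mean over the 12 samples. Colours end at -1 and 1, so values beyond these are drawn at the end of the scale. In the adult columns the 20S core rows are blue apart from adult replicate 1 of Psma2 and Psmb5, and Psme3 is red.

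The widest comparison set adults against E18.5. Proteasome genes were mostly lower in adults: 21 of 38 fell, or 55.3%, where 22.2% of all genes fell. Only Psme3 rose, 2.63% of the 38, where 18.7% of all genes rose. In either direction 57.9% of the 38 and 40.9% of all genes were called. Adults lay below E18.5 without overlap for 19 of the 38 and above it for 1, against 23.4% and 19.9% of all genes. The median difference over the 38 was -0.37 on the log2 scale, against -0.02 over all genes. Of the 13 measured genes of the 20S core, 11 fell (84.6%), and of the 16 measured subunits of the 19S particle, 7 fell (43.8%). The probes of the core were brighter, with a mean log2 level of 9.84 at E18.5 against 8.09 for the particle. Neither the difference between the assemblies nor the part of signal brightness in it was tested. In bulk RNA, fewer cells of a type and less RNA per cell cannot be told apart. The beta-cell, acinar, dividing-cell, endothelial and stromal, immune and duct marker means above did not overlap between adults and E18.5. The beta-cell and acinar means were higher in adults and the others lower. With the acinar marker mean as an added term, chosen after seeing the data, 0 of the 38 and 1.87% of all genes were called in the limma fit, and the median difference was -0.35. With this term an unadjusted p under 0.05 was found for 7 of the 38 and 15.6% of all genes. Without it these were 23 of the 38 and 48.6% of all genes. With the mean of the dividing-cell markers as the added term, only Psme1 among the 38 was called, with 1.94% of all genes, and the median was -0.44. Age and either marker mean cannot be told apart in this comparison. The part of the beta-cell, endothelial and stromal, immune and duct markers was not tested.

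Scaling bears on the split between falls and rises. Under median centring in place of quantile normalisation, the median of all genes was -0.12 and that of the 38 was -0.51, and 2656 genes fell and 1185 rose, against 2036 and 1718 under quantile normalisation. Psme3 was the only riser among the 38 under both.

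All 5 measured alpha subunits fell, where 22.2% of all genes fell. Psma5 had log2 levels of 10.64, 10.70, 10.89 and 10.68 at E18.5, 10.62, 10.55 and 10.55 at P1, 10.17 and 10.41 at P10, and 9.76, 9.75 and 9.67 in adults. The levels were lower at each age from P1 on, and the adults lay below every other sample. In the deposited intensities the gap was from 818.0 to 863.8 in adults against 1625.3 to 1850.6 at E18.5. The adult level was 2.01-fold lower (log2 difference -1.004 ± 0.10 SE, adjusted p = 2.46e-06). Psma7 stood at 8.58, 9.03, 9.04 and 9.34 at E18.5, 8.74, 8.91 and 9.10 at P1, 8.80 and 8.87 at P10, and 8.25, 8.18 and 7.95 in adults. E18.5 replicate 1 was the low sample of its age, yet all adults were lower still. The difference was -0.87 ± 0.15 (adjusted p = 0.000442). A second probe for Psma7 gave -0.71. Psma4 was measured at 9.27, 9.28, 9.78 and 9.77 at E18.5, 9.09, 9.17 and 9.38 at P1, 9.26 and 9.29 at P10, and 8.76, 8.93 and 8.77 in adults. At E18.5 its samples fell into a higher and a lower pair, and the adults were below all 9 younger samples. Its difference was -0.70 ± 0.14 (adjusted p = 0.00116). Psma2 and Psma3 differed by -0.38 and -0.39 (adjusted p = 0.0212 and 0.0171), and for Psma2 one adult overlapped the E18.5 range. Without adult replicate 3 the adjusted p was 0.109 for Psma2 and 0.0745 for Psma3. The call on Psma2 was also lost without E18.5 replicate 4 (0.0604) and without adult replicate 2 (0.0653).

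The 4 non-catalytic beta subunits fell as well, where 22.2% of all genes fell. Psmb1 stood at 10.09, 9.91, 9.81 and 10.11 at E18.5, 9.89, 9.98 and 10.04 at P1, 9.64 and 9.63 at P10, and 9.19, 9.31 and 9.25 in adults. The ages after P1 formed separate steps with no overlap between P1, P10 and adults. Its adult difference was -0.73 ± 0.10 (adjusted p = 5.65e-05). Psmb4 was measured at 11.32, 11.47, 11.45 and 11.45 at E18.5, 11.30, 11.45 and 11.31 at P1, 11.03 and 11.17 at P10, and 10.92, 10.71 and 10.73 in adults. The adults were the lowest 3 samples, and P10 lay between them and the younger ages. The difference was -0.63 ± 0.10 (adjusted p = 0.000141). Psmb2 and Psmb3 differed by -0.56 and -0.60 (adjusted p = 0.00162 and 0.00136).

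Of the 4 measured catalytic subunits, Psmb5 and Psmb7 fell (50%), where 22.2% of all genes fell. Psmb5, which carries the chymotrypsin-like activity, had levels of 7.60, 7.14, 7.23 and 7.56 at E18.5, 7.02, 7.16 and 7.03 at P1, 7.12 and 6.99 at P10, and 7.25, 6.82 and 6.77 in adults. Adult replicate 1 lay inside the E18.5 range and above all P1 and P10 samples. The difference was -0.44 ± 0.14 (adjusted p = 0.0233), and the call was lost on leaving out E18.5 replicate 1 (adjusted p = 0.0621) or 4 (0.0623), or adult replicate 2 (0.0937) or 3 (0.102). Psmb7, with the trypsin-like activity, stood at 9.17, 9.15, 9.61 and 9.76 at E18.5, 9.04, 9.28 and 9.53 at P1, 9.50 and 9.71 at P10, and 8.94, 8.96 and 8.83 in adults. All adults were below all younger samples. Its difference was -0.51 ± 0.16 (adjusted p = 0.0178), and 2 further probes of the gene gave -0.79 and -0.86. The call was lost without E18.5 replicate 3 (0.0508), E18.5 replicate 4 (0.0525) or adult replicate 3 (0.0598).

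Psmb6, with the caspase-like activity, was measured at 10.28, 9.92, 10.16 and 10.42 at E18.5, 9.97, 9.90 and 10.53 at P1, 10.36 and 10.22 at P10, and 9.98, 9.98 and 9.65 in adults. The adults overlapped E18.5 and P1. The difference of -0.32 had a 95% interval of -0.67 to 0.02 and did not pass the test (adjusted p = 0.12). Psmb10 is the counterpart of Psmb7 in the immunoproteasome, the form found in immune cells and after interferon. It stood at 7.75, 7.40, 7.40 and 7.64 at E18.5, 7.41, 7.98 and 7.55 at P1, 7.74 and 7.89 at P10, and 7.43, 7.35 and 6.78 in adults. Adult replicate 3, the sample with the fewest other islet cell transcripts, was the lowest of all, adult replicate 2 lay just below E18.5, and adult replicate 1 lay within its range. The difference of -0.36 (95% interval -0.73 to 0.0004) did not pass the test (adjusted p = 0.103), and a second probe gave -0.35. Probe matches to the pseudogenes that RefSeq lists for Psma5 (1), Psmb5 (1), Psmb6 (2) and Psmb7 (2) were not tested.

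In the 19S particle, 4 of 6 ATPases fell (66.7%), where 22.2% of all genes fell. Psmc4 had levels of 9.67, 9.66, 9.80 and 9.92 at E18.5, 9.47, 9.43 and 9.58 at P1, 9.43 and 9.48 at P10, and 9.24, 9.07 and 9.29 in adults. E18.5 was the highest group and adults the lowest, with P1 and P10 overlapping between them. The difference was -0.56 ± 0.10 (adjusted p = 0.000526). Psmc2 and Psmc3 differed by -0.53 and -0.54 (adjusted p = 0.000406 and 0.00328). Psmc5 differed by -0.33 (adjusted p = 0.0163), with the call lost without adult replicate 1 (0.0535) or adult replicate 2 (0.0613). A second probe for Psmc5 gave -0.19, and the mean of both probes did not pass the test (adjusted p = 0.117). Psmc1 and Psmc6 differed by -0.06 and 0.18, with adjusted p of 0.715 and 0.218.

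Of the non-ATPase subunits, 3 of 10 fell (30%), where 22.2% of all genes fell. Psmd13, a structural subunit of the lid, was measured at 9.43, 9.56, 9.28 and 9.53 at E18.5, 9.19, 9.33 and 9.07 at P1, 9.26 and 9.05 at P10, and 8.78, 8.80 and 8.93 in adults. The adults lay below every other sample, and P1 and P10 overlapped. The difference was -0.61 ± 0.11 (adjusted p = 0.000411). Psmd4, a receptor for ubiquitin chains, stood at 10.43, 10.15, 10.21 and 10.21 at E18.5, 10.63, 10.36 and 10.41 at P1, 10.05 and 10.34 at P10, and 9.91, 9.76 and 9.94 in adults. Its highest level was at P1 and its lowest in adults. Its adult difference from E18.5 was -0.38 ± 0.11 (adjusted p = 0.0151), or 0.0671 without adult replicate 2. Psmd1, a scaffold of the base with levels close to background, differed by -0.28 (adjusted p = 0.0415). Its call was lost on leaving out any of 8 samples, with adjusted p from 0.0505 without P10 replicate 1 to 0.112 without E18.5 replicate 4.

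Psmd14, the enzyme that strips ubiquitin chains from the substrate, had levels of 7.59, 7.27, 7.74 and 7.89 at E18.5, 7.29, 7.43 and 7.33 at P1, 7.59 and 7.41 at P10, and 7.42, 7.48 and 7.17 in adults. The ages overlapped. The difference between adults and E18.5 was -0.26 (95% interval -0.56 to 0.03, adjusted p = 0.146). Psmd6, a subunit of the lid, stood at 7.27, 6.79, 6.67 and 7.04 at E18.5, 6.60, 6.65 and 6.60 at P1, 6.84 and 6.70 at P10, and 6.77, 6.63 and 6.75 in adults. E18.5 spread most and overlapped the adults, and the difference was -0.23 (adjusted p = 0.175). Psmd8 was measured at 8.37, 7.84, 8.33 and 8.19 at E18.5, 8.55, 8.22 and 6.47 at P1, 7.77 and 8.25 at P10, and 8.01, 7.33 and 8.13 in adults. P1 replicate 3 was far below all other samples, and the gene had one of the 2 largest p-values of the 38 in the F-test (adjusted p = 0.7). The remaining 4 members differed by -0.30 (Psmd2), -0.09 (Psmd7), -0.07 (Psmd12) and 0.11 (Psmd11), and did not pass the test. Psmd2 was not above background in adults, and a bound put the adult mean at least 1.04-fold below the E18.5 mean. This bound sets the E18.5 mean against the lowest adult signals above background, or the probe's own where higher. It does not allow for the spread between samples. Adult replicate 3 (5.00) lay above E18.5 replicate 2 (4.89), and Psmd2 was not called in limma (adjusted p = 0.0713).

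The assembly chaperones of the 19S base, Psmd5, Psmd9 and Psmd10, leave the finished particle and are not part of it. None of the 3 passed the test between adults and E18.5 in limma, where 40.9% of all genes passed it. None had an unadjusted p under 0.05, against 48.6% of all genes. Psmd5 stood at 5.08, 5.17, 5.12 and 5.15 at E18.5, 5.01, 5.51 and 4.93 at P1, 5.03 and 5.36 at P10, and 5.13, 5.33 and 5.44 in adults. All groups overlapped, and it had the largest p-value of the 38 in the F-test (adjusted p = 0.706). Its adult difference was 0.17, against -0.15 for Psmd9 and 0.10 for Psmd10.

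Of the 4 activators, 2 fell (50%) and 1 rose (25%), where 22.2% of all genes fell and 18.7% rose. Psme1, a subunit of the interferon-inducible 11S ring, had levels of 9.11, 9.06, 9.14 and 9.05 at E18.5, 9.02, 9.21 and 9.17 at P1, 8.54 and 8.97 at P10, and 8.22, 8.31 and 7.77 in adults. E18.5 and P1 overlapped, P10 lay below both, and adults lay below P10. The adult level was 1.99-fold lower than at E18.5 (log2 difference -0.99 ± 0.14, adjusted p = 5.24e-05), and a second probe gave -0.84. Psme2, the partner of Psme1 in that ring, was measured at 6.49, 6.42, 6.64 and 6.90 at E18.5, 6.57, 6.45 and 6.62 at P1, 6.85 and 6.73 at P10, and 6.56, 6.53 and 6.07 in adults. Adult replicate 3 was the lowest sample for both partners, while the other adults overlapped E18.5 for Psme2 only. The difference for Psme2 was -0.23 (95% interval -0.53 to 0.07, adjusted p = 0.218). The difference between the partners was not tested.

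Psme3 forms a ring of its own in the nucleus and acts on proteins without ubiquitin. It stood at 7.29, 7.33, 7.14 and 7.37 at E18.5, 7.31, 7.19 and 7.20 at P1, 7.42 and 7.56 at P10, and 8.06, 7.83 and 7.87 in adults. It was higher in P10 than in all younger samples and highest in adults. Its adult level was 1.56-fold higher than at E18.5 (log2 difference 0.64 ± 0.10, adjusted p = 0.00017). Psme4, a single-chain activator found in nuclei and in the testis, had levels of 9.32, 9.42, 9.36 and 9.48 at E18.5, 9.20, 9.10 and 9.27 at P1, 9.29 and 9.17 at P10, and 9.15, 8.98 and 8.83 in adults. All later samples lay below all E18.5 samples. The adult difference was -0.41 ± 0.10 (adjusted p = 0.00554).

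Of the genes that are not subunits, chaperones or activators, Psmc3ip fell the most of the 38. It was measured at 7.17, 6.73, 6.71 and 6.98 at E18.5, 6.33, 6.73 and 5.98 at P1, 6.75 and 6.59 at P10, and 5.58, 5.51 and 5.76 in adults. Adults were lowest, and P1 replicate 3 came next. The adult level was 2.43-fold lower (log2 difference -1.28 ± 0.16, adjusted p = 2.46e-05). The markers of dividing cells were also lowest in adults and low at P1. With their mean as an added term the difference for Psmc3ip was -1.30 and was not called (adjusted p = 0.274). Psme3ip1 differed by -0.04 (adjusted p = 0.802).

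**Figure D2:**
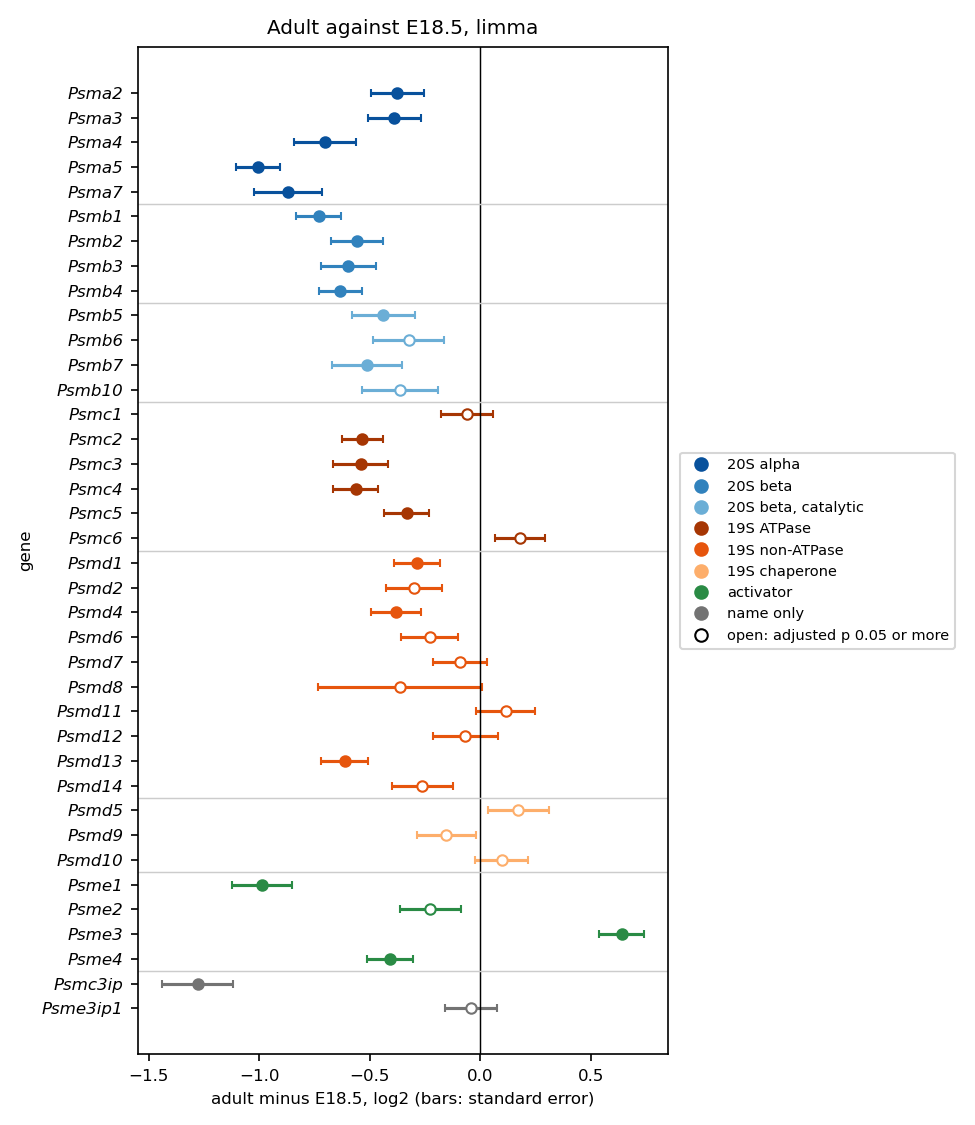
The horizontal axis is the log2 level in adults minus that at E18.5, with a point for each of the 38 genes, its standard error as the bar, and the groups of genes by colour. Filled points passed the test. Points of the 20S core lie between -1.004 and -0.32, those of the 19S particle between -0.61 and 0.18, and Psme3 stands alone at 0.64.

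RefSeq promoter windows of the build GRCm38.p6, from 250 bases before to 50 after each gene's start, were matched by gene to 33 of the 38 members, with 36 windows in all since 3 genes had 2. They were searched on both strands for 4 motifs, which may overlap one another in a window. The core of an ETS factor site, CCGGAAG, was in 14 of the 36 windows (38.9%) and in 8.86% of 32851 windows of the same length. The core of the antioxidant response element bound by Nfe2l1 and Nfe2l2, TGACNNNGC, was in 6 (16.7%), against 12.4% of all windows. The CCAAT box was in 12 (33.3%), against 37.4%, and the core of the interferon response element, GAAA repeated after any 2 bases, in 4 (11.1%), against 3.44%. Among the 18 windows of genes that fell in adults, 6 held the ETS core, 2 the antioxidant core, 7 the CCAAT box and 3 the interferon core. Among the 18 windows of the other members these numbers were 8, 4, 5 and 1. A match describes letters and is not a site of binding.

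Windows of 4 genes are printed because they carry the ends of the adult comparison: Psma5 and Psme1 fell most among the proteasome subunits and activators, Psmb5 is the principal catalytic subunit, and Psme3 rose. Each runs 5′ to 3′ on the gene's strand, and capitals mark motif matches. The Psma5 window (chr3:108256676-108256975, plus strand) held no match to these letters. In the Psmb5 window (chr14:54617946-54618245, minus strand), the antioxidant core begins at base -47 from the start. The Psme1 window (chr14:55578244-55578543, plus strand) holds the interferon core on the reverse strand at base 10. In the Psme3 window (chr11:101315963-101316262, plus strand), the ETS core stands at base -107 and on the reverse strand at base 3, with a CCAAT box on the reverse strand at base -14.
Psma5: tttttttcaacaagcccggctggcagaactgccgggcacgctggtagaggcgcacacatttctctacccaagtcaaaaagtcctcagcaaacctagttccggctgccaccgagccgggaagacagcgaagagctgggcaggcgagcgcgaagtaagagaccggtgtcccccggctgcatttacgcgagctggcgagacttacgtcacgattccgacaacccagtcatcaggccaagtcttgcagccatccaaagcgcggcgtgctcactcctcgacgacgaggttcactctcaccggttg
Psmb5: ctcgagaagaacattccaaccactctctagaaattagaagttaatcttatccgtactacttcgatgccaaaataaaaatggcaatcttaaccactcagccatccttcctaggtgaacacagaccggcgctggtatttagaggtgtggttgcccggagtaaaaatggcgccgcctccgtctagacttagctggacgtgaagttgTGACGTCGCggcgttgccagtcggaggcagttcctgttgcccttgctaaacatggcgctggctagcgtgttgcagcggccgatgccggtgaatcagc
Psme1: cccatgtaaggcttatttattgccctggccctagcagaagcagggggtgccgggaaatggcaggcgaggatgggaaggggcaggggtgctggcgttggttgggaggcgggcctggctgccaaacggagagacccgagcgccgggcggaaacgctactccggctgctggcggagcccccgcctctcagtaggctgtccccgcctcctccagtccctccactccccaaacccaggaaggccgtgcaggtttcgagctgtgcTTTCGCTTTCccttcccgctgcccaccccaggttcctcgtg
Psme3: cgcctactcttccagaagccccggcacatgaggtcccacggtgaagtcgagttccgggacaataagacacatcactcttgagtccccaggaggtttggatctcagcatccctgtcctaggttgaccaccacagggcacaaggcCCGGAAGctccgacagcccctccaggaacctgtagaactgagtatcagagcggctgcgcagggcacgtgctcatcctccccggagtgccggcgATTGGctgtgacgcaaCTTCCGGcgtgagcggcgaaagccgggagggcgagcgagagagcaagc

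Adults against P10 gave 8 calls among the 38, or 21.1%, where 13.5% of all genes were called. Psma3, Psma5, Psma7, Psmb1, Psmb7, Psme1 and Psmc3ip fell, 18.4% of the 38 against 7.41% of all genes, and Psme3 rose, 2.63% against 6.07%. The median difference was -0.28 over the 38 and -0.01 over all genes. All 5 subunits called were of the 20S core, whose 13 genes had a median of -0.45, and 0 of the 16 subunits of the 19S particle were called in limma, where 3 had an unadjusted p under 0.05, against 27.4% of all genes, and the median was -0.15. Adults lay below P10 without overlap for 12 of 13 genes of the 20S core and 6 of 16 of the 19S particle, against 22% of all genes, and above it for 2 of the 16, against 20.3%.

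The largest of these differences by p was that of Psmc3ip, at -1.05 ± 0.19 (adjusted p = 0.00244). Psma5 differed by -0.56 ± 0.12 (adjusted p = 0.00609), Psme1 by -0.66 ± 0.16 (adjusted p = 0.0155) and Psma7 by -0.70 ± 0.18 (adjusted p = 0.0205). These genes' adult samples were all below both P10 samples. Psmb7 differed by -0.69 ± 0.19 (adjusted p = 0.0256) and Psme3 by 0.43 ± 0.12 (adjusted p = 0.0281). Psma3 and Psmb1 stood near the threshold, at adjusted p of 0.0425 and 0.0494. Psmb10 (-0.63), Psmb3 (-0.45) and Psme2 (-0.40) did not pass the test, with adjusted p of 0.0537, 0.0542 and 0.133.

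With 2 samples at P10 the number of calls rested on single samples. It was 3 without P10 replicate 1, 1 without P10 replicate 2 (Psmc3ip) and 4 without adult replicate 3, and 4 when only the ages compared entered the fit. The acinar markers overlapped between adults and P10, and with their mean as an added term the same genes were called except Psma3, 7 in all. The markers of dividing cells ran from 5.40 to 5.82 in adults against 6.70 to 7.12 at P10. With their mean as a term, 0 of the 38 and 0.425% of all genes were called in limma. An unadjusted p under 0.05 was then found for 6 of the 38 and 10.3% of all genes. Median centring gave 832 falls and 379 rises over all genes, against 681 and 558, and 7 calls among the 38, of which 5 were among the 8 and Psme3 was not.

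**Figure D3:**
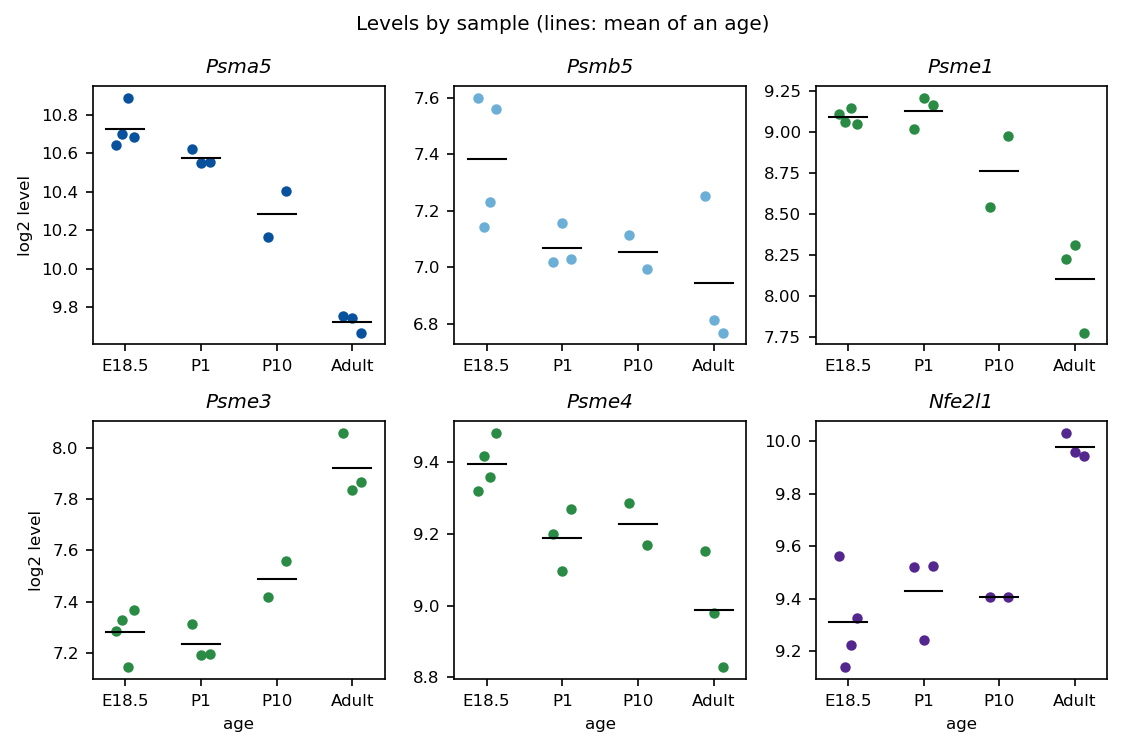
Log2 levels of 6 genes in each of the 12 samples by age, with a line at the mean of each age; each panel has its own vertical range. In adults, Psma5 and Psme1 lie below all younger samples and Psme3 and the transcription factor Nfe2l1 above them, while 1 adult sample of Psmb5 lies within the E18.5 range.

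The first day after birth and the days to P10 gave no calls. For P1 against E18.5, 0 of the 38 were called in limma, where 5.48% of all genes were (2.88% lower and 2.59% higher), and 6 had an unadjusted p under 0.05, where 20.8% of all genes did. The median difference was -0.07 over the 38 and -0.01 over all genes. It was below 0 for 28 of the 38 and for 4753 of all 9187 genes. The 6 were Psmc3ip (-0.55, adjusted p = 0.0636), Psmc4 (-0.27, adjusted p = 0.143), Psmd6 (-0.33, adjusted p = 0.158), Psmd13 (-0.25, adjusted p = 0.2), Psmb5 (-0.31, adjusted p = 0.223) and Psma4 (-0.31, adjusted p = 0.229). Of these, Psmc4 and Psmd6 had no overlap between P1 and E18.5. A second probe for Psmd6, above background on all 12 samples, differed by -0.03 between these ages. P1 lay below E18.5 without overlap for 5 of the 38 and above it for 0, against 9.87% and 10.3% of all genes. One call, on Psmc3ip, appeared without P1 replicate 2, with median centring and with trend and robust settings of the eBayes step. Median centring also moved the split over all genes to 349 falls and 149 rises, against 265 and 238.

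For P10 against P1, 0 of the 38 were called in limma, where 11.7% of all genes were (6.15% lower and 5.57% higher), and 4 had an unadjusted p under 0.05, where 25.7% of all genes did. The median difference was -0.01 over the 38 and 0.00 over all genes. The 6 smallest p-values belonged to Psmb1 (-0.33, adjusted p = 0.0918), Psma5 (-0.29, adjusted p = 0.136), Psme1 (-0.37, adjusted p = 0.162), Psmb4 (-0.25, adjusted p = 0.186), Psme3 (0.26, adjusted p = 0.197) and Psmd4 (-0.27, adjusted p = 0.222). All 6 had no overlap between P10 and P1, but they were picked by p between these same groups, so this adds no support. Their signs were those of their adult difference from E18.5, and this match was not tested. Over the 38, P10 lay below P1 without overlap for 7 and above it for 5, against 22.8% and 22% of all genes.

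The course of the 2 assemblies can be read from the mean over their genes in each sample. The mean log2 level over 13 genes of the 20S core was 9.84 ± 0.12 in E18.5 samples, 9.71 ± 0.07 in P1 samples, 9.71 ± 0.04 in P10 samples and 9.26 ± 0.13 in adult samples (SD, n = 4, 3, 2 and 3). Most of its difference lay after P10. Over 16 genes of the 19S particle it was 8.09 ± 0.08, 7.97 ± 0.10, 7.93 ± 0.05 and 7.82 ± 0.09 at the same ages. The means of the 19S particle overlapped between adjacent ages. Relative to the E18.5 mean, the 3 adults stood at -0.47, -0.53 and -0.73 for the 20S core and at -0.29, -0.35 and -0.18 for the 19S particle. The adult sample lowest for the core was the highest of the 3 for the particle, and it was the one low in other islet cell markers, whose part was not tested.

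**Figure D4:**
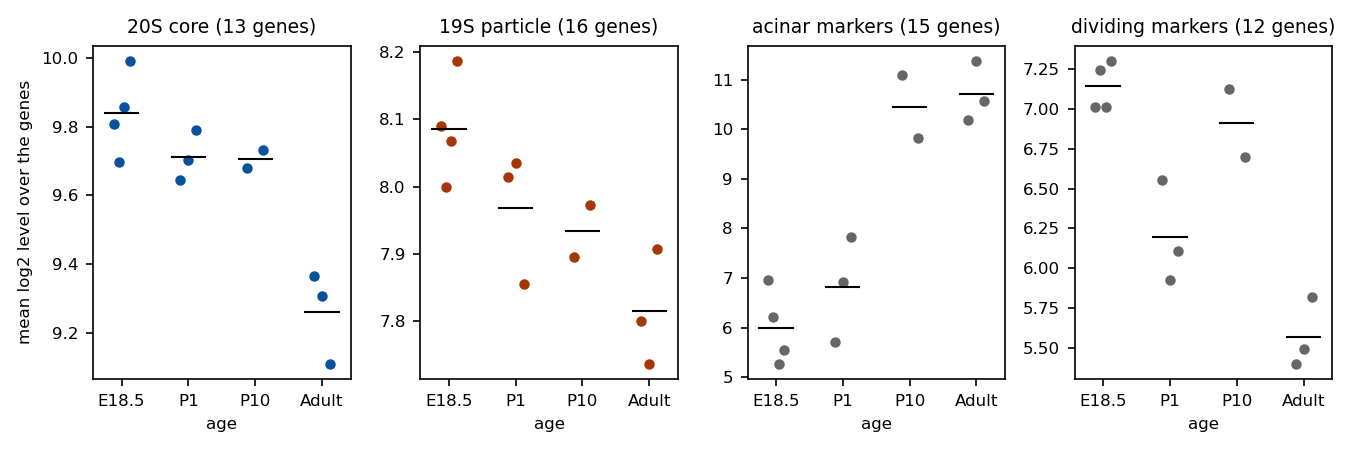
The vertical axis is the mean log2 level over the genes of a list in each of the 12 samples, by age, with a line at the mean of each age; each panel has its own range. Adults lie below all other samples for the 20S core, from 9.11 to 9.37, and also for the markers of dividing cells, while the acinar markers are high at P10 and in adults.

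Other genes of the pathway were followed by lists. Of 6 measured genes for subunits, assembly factors and the inhibitor outside the symbol rule, 2 fell in adults against E18.5 (33.3%) and 0 rose, where 22.2% of all genes fell and 18.7% rose. Sem1, a small subunit of the lid, averaged 10.72 ± 0.08 in adults and 11.08 ± 0.05 at E18.5 (SD, n = 3 and 4), a difference of -0.36 (adjusted p = 0.00521). It also fell in adults against P10, by -0.50 (adjusted p = 0.00684). Psmg1, a chaperone of 20S assembly, averaged 6.66 ± 0.12 in adults and 7.03 ± 0.10 at E18.5 (adjusted p = 0.0163). Psmg3, another such chaperone, fell at P1 against E18.5 by -0.51 (adjusted p = 0.0215), with a mean of 6.15 at P1 and 6.67 at E18.5.

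Among 6 measured genes for transcription factors of proteasome genes and their regulators, 1 rose and 1 fell in adults against E18.5, 16.7% each way and so close to the shares of all genes. Nfe2l1 is activated when the proteasome is inhibited and induces its subunit genes. Its levels were 9.56, 9.14, 9.22 and 9.33 at E18.5, 9.52, 9.24 and 9.53 at P1, 9.41 and 9.41 at P10, and 10.03, 9.96 and 9.94 in adults. The younger ages overlapped, and the adults lay above all of them. The adult difference was 0.66 ± 0.12 against E18.5 (adjusted p = 0.000385) and 0.57 ± 0.14 against P10 (adjusted p = 0.0136). Mafg, a small Maf protein that pairs with Nfe2l1, fell in adults against E18.5, with means of 7.45 ± 0.22 in adults and 8.08 ± 0.10 at E18.5 (difference -0.62, adjusted p = 0.000489).

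Of 19 measured genes of ubiquitin activation, recycling and delivery, 3 fell (15.8%) and 2 rose (10.5%) in adults against E18.5. Over all genes 22.2% fell and 18.7% rose, and the gap to these shares was not tested. Uchl1, a deubiquitinase abundant in neurons and endocrine cells, averaged 5.32 ± 0.28 in adults and 6.34 ± 0.13 at E18.5 (difference -1.03, adjusted p = 0.000159). It had also fallen at P10 against P1, by -0.72 (adjusted p = 0.0262). Bag6, which holds mislocalised proteins for degradation, fell by -0.47 (adjusted p = 0.0037), and Vcp, the segregase that pulls proteins from the reticulum, by -0.41 (adjusted p = 0.011). The autophagy receptor Sqstm1 rose by 0.40 (adjusted p = 0.0211) and the shuttle Ubqln1 by 0.38 (adjusted p = 0.0142). Sqstm1 was higher already at P1 against E18.5, by 0.53 (adjusted p = 0.0298), where Uchl5, a deubiquitinase of the 19S particle, fell by -0.53 (adjusted p = 0.0277). In adults against P10, 0 of the 19 were called in limma and 4 had an unadjusted p under 0.05, where 13.5% and 27.4% of all genes did.

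Further probes give a check on the choice of the brightest. Besides those used, 15 probes of 13 members were kept, and 12 had the same sign as the one used between adults and E18.5. The opposite sign was found for Psmd6, Psmd7 and Psmd11, none of which was called.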

How the data were processed

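The authors deposited linear intensity values of 25697 probes for the 12 samples. How these were scanned, scaled or corrected is not given in the sources used here. Another table, with 24 columns of per-sample values, was left out: the names of its columns match no label. Background was fitted from the signals with normexp (offset 16), followed by quantile normalisation and a log2 transform. The limit of background, 39.8 to 48.5 intensity units by sample, is the level that 1% of background signals would pass, given their mode and the spread of lower signals. The 13189 probes above it on at least 2 samples were kept, and the brightest per gene was used. Gene names came from the platform table, updated through gene IDs in the RefSeq table; 1719 probes are unnamed here.

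Genes were tested with limma 3.58.1 in R 4.3.3 (lmFit and eBayes on all 12 samples, age as the factor, Benjamini-Hochberg over 9187 genes, threshold 0.05). The number of arrays limits the precision. After removal of the age means, same-numbered samples of different ages correlated at r of -0.07 to 0.28, over 0.1 in 5 of 15 pairs. Some of them may share a source of variation. The labels do not say what a shared number means, so the numbers entered only as an alternative, the replicate block. No pair of samples shared more than 0.95% of its values.

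Genes with values by sample were, by rule, the 6 members with the smallest p in each comparison, the 2 with the largest p in the F-test and 11 fixed genes; other lists gave up to 4 genes per direction and comparison. Members and lists were chosen with earlier results of these data known. The alternatives were other background corrections, scalings, probe filters and fits, the replicate block, each sample left out, and 2 marker means added after seeing the data. Figures were drawn with matplotlib 3.10.9.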

Additional observations from a re-analysis of the deposited data

Results flagged for a closer look

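Within the 4 samples of E18.5, 2 members had 1 sample far from the others, in both cases E18.5 replicate 1. For Psmb4 its gap to the nearest sample was 0.856 of the range of the group (past Dixon's critical value for 4 samples), with a level of 11.32 against 11.45 to 11.47 in the other 3. For Psmc1 the gap was 0.837 of the range, with 8.02 against 8.42 to 8.50. Chance flags about 1 in 20 groups, and 38 members were looked at. Psmb4 fell in adults with and without this sample, and Psmc1 was called in neither case.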

How the results depend on the processing

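Of the 22 calls between adults and E18.5, 15 held under all 23 alternatives other than the added marker terms, and of the 8 between adults and P10, only that on Psmc3ip did. No called gene changed sign under any alternative. The number called between adults and E18.5 was 17 to 22 with each sample left out and 19 to 27 under the other alternatives without a marker term; it was 0 with the acinar marker mean and 1 with the dividing-cell marker mean as an added term. Past the F-test it was 18, 15 to 19 with each sample left out, 5 with the acinar term and 7 with the dividing-cell term. Between adults and P10 it was 8, 4 with only the ages compared, 1 to 9 with each sample left out and 0 with the dividing-cell term; where 1 P10 sample remained, it was assumed to vary like the other groups. Between P1 and E18.5 it was 0, but 1 with median centring, 2 on log2 of the deposited values, 1 with trend and robust settings and 0 to 1 with each sample left out. Between P10 and P1 it was 0, but 1 with an offset of 50, and 0 with each sample left out. The replicate block gave 0, 0, 7 and 19 calls in the 4 comparisons in order of age and 16 in the F-test. Under it the calls on Psma2 (adjusted p = 0.0701), Psmc5 (0.0502) and Psmd1 (0.105) between adults and E18.5 and on Psma3 (0.0815) and Psmb1 (0.0848) between adults and P10 were lost, and Psma4 (0.0402) was called between adults and P10. Over all genes it moved the calls at P1 against E18.5 to 217, against 503 without it. The number 4 occurs only at E18.5, so under the block that sample no longer informs comparisons with E18.5. For P1 against E18.5, the block gave 122 lower and 95 higher over all genes. Leaving out E18.5 replicate 4 gave 116 lower and 107 higher. The causes of these differences were not tested. Signals near background limit Psmd1, Psmd2, Psmd5, Psmd9 and Psmc6.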
